A study of Mus musculus with 12 samples.

Results

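Metallothioneins, zinc transporters and the zinc-sensing transcription factor were followed in the liver (LIV) and the s.c. inguinal adipose tissue (SAT) of mice on a high-fat diet (HFD), with or without LY, which inhibits S6K1, a kinase of ribosomal protein S6. The set held 9 genes, each with 1 probe set, out of 22206 probe sets tested and 19505 gene symbols: the metallothioneins Mt1 and Mt2, the importers Slc39a4, Slc39a5, Slc39a8 and Slc39a14, the exporters Slc30a1 and Slc30a10, and Mtf1. They were taken by gene symbol and chosen by role, with their differences between HFD + LY and HFD in these arrays already known, so those differences are given as a description, with no test. All animals were male C57BL/6N mice of 8 weeks at the start. The HFD + LY mice (animals 16, 18 and 20) were gavaged with LY2584702 tosylate at 25 mg/kg every 12 hours for 12 weeks, and the HFD mice (animals 8, 11 and 14) were given its vehicle. During the last 10 of those weeks fat supplied 60% of the kcal eaten in both groups. Each tissue of each animal was put on 1 Affymetrix whole-transcript array, read as the log2 signal of a probe set per gene, which gave 12 arrays in 4 groups of 3. Both groups share the diet, and only male mice were used.

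Zinc enters the cytosol through the ZIP proteins (Slc39 genes) and leaves it, for the blood, a vesicle or an organelle, through the ZnT proteins (Slc30 genes). Metallothioneins are small, cysteine-rich proteins that bind zinc and copper and buffer free zinc, and the liver is one of their main sites. Free zinc activates MTF1, which binds metal response elements (MREs) in promoters of the metallothionein genes and of Slc30a1. In liver the metallothionein genes are also known to respond to glucocorticoids, to interleukin 6 through STAT3 and to oxidative stress.

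The promoters of Mt1, Mt2 and Slc30a1 are shown because these are the members best known as MTF1 targets, and because they moved by very different amounts in the liver arrays. RefSeq promoter windows (build GRCm38.p6, 250 bases before to 50 after the annotated start) were at hand for 7 of the 9 members, Slc39a4 and Slc39a14 being the other two. Printed are the 250 upstream bases, 5' to 3' along the gene, with each match to the MRE core, TGCACNC or TGCGCNC on either strand, in capitals. A match on the opposite strand appears as the reverse complement of the core. The windows are chr8:94178839-94179088 for Mt1, chr8:94172368-94172617 for Mt2 and chr1:191906531-191906780 for Slc30a1, all on the + strand.
Mt1: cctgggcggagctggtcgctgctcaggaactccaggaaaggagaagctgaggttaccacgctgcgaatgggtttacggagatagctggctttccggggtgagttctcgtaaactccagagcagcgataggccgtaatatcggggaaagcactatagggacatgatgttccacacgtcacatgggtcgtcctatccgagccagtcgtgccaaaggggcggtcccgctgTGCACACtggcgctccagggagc
Mt2: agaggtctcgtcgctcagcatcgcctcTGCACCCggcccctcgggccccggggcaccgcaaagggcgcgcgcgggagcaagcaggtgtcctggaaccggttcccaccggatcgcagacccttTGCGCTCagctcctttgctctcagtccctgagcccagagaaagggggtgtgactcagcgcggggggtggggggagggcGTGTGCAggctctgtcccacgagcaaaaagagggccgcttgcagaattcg
Slc30a1: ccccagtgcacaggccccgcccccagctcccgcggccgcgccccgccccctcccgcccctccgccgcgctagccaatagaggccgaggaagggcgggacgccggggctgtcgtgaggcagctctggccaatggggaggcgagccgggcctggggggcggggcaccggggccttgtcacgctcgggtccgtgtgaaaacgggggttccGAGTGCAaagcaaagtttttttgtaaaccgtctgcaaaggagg

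Mt1 and Mt2 are neighbours on chromosome 8 and are read in the same direction. Over the whole 300-base window the core was found 4 times in Mt2, with 3 of the matches upstream of the annotated start. In Mt1 it was found 3 times, where 1 lay 23 bases before the annotated start and the others after it. The core occurred 2 times in the Slc30a1 window, of which 1 lay 43 bases before the start. The Slc30a10 window held 3 matches, 2 of them overlapping on opposite strands, and Slc39a5 and Slc39a8 had 1 match each in 1 of their windows. The Mtf1 window held none of these letters. Of 32851 windows of the same length, 25.7% held at least 1 match, 7.11% at least 2, 1.97% at least 3 and 0.517% at least 4. A match is a string of letters and not a bound site. All positions are counted from the annotated start, and where transcription starts in these livers was not tested. Elements outside the windows are not seen, so the counts are not compared between genes.

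Both tissues carried their own defining genes, and some SAT samples also held a signal of skeletal muscle. The mean log2 signal of 8 hepatocyte markers was 13.54 to 13.59 in LIV and 7.564 to 7.848 in SAT, and that of 8 adipocyte markers 13.24 to 13.47 in SAT. In SAT the mean of 12 skeletal muscle markers was 13.27 for animal 11 of the HFD mice and 12.92 for animal 20 of the HFD + LY mice, against 9.393 for animal 14 and 7.641 to 7.739 for the other 3. In LIV the mean of the 8 adipocyte markers was 8.358 to 8.443 in HFD and 8.016 to 8.139 in HFD + LY. These means lay near the medians of the 12 arrays, 8.16 to 8.28, so they do not show adipocytes in the livers. Of the 8 markers, 7 were lower in HFD + LY livers, 4 of them at an unadjusted p under 0.05 in limma. The 7 measured macrophage and Kupffer cell markers were all lower in HFD + LY livers, 3 of them at that threshold, with means of 8.521 to 8.847 against 8.786 to 9.294 in HFD. The 4 measured cholangiocyte markers were all lower as well, 1 of them at that threshold. Their mean was 7.979, 7.726 and 7.806 in HFD animals 8, 11 and 14 and 7.478, 7.426 and 7.77 in HFD + LY animals 16, 18 and 20, so that the groups overlapped through animal 20. It lay below the array medians in every liver. Of 5 endothelial markers 4 were lower too, and of 5 measured T and B cell markers 4, with 0 at that threshold in either list. Of the hepatocyte markers 4 of 8 and of the muscle markers 5 of 12 were lower. Over all probe sets 51.9% were lower in HFD + LY livers, and 3.94% at that threshold.

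Mt1 and Mt2 had lower signals in the liver of HFD + LY mice than in that of HFD mice. On the log2 scale, the liver signal of Mt1 was 11.83, 11.36 and 11.63 in HFD animals 8, 11 and 14. It was 9.96, 9.76 and 11.14 in HFD + LY animals 16, 18 and 20. All 3 HFD + LY livers lay below all 3 HFD livers, but animals 16 and 18 were far below and animal 20 was only 0.223 under the lowest HFD array. The difference was -1.32 (SE 0.318, n = 3 per group), a ratio of 0.401, and the SD was 0.238 in HFD and 0.741 in HFD + LY. Only 3 of the 22206 probe sets had a more negative liver difference. Animal 20 was also the highest of the treated livers in the cholangiocyte and adipocyte markers, and in most of the other marker lists. It was the lowest of them in the macrophage and endothelial markers. The part of the adipocyte, macrophage and cholangiocyte signals in this difference was not tested. In bulk tissue, fewer cells of a type and less RNA per cell cannot be told apart.

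Mt2 was lower in the same livers. Its signal was 11.12, 10.81 and 10.86 in animals 8, 11 and 14, and 9.65, 9.74 and 10.45 in animals 16, 18 and 20. The groups were again separate, by 0.353, with animal 20 the nearest to the HFD mice. The difference was -0.98 (SE 0.203), a ratio of 0.506, the 10th lowest of all probe sets. Without animal 20 the liver differences were -1.74 for Mt1 and -1.24 for Mt2, and without animal 18 they were -1.06 and -0.88.

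**Figure D1:**
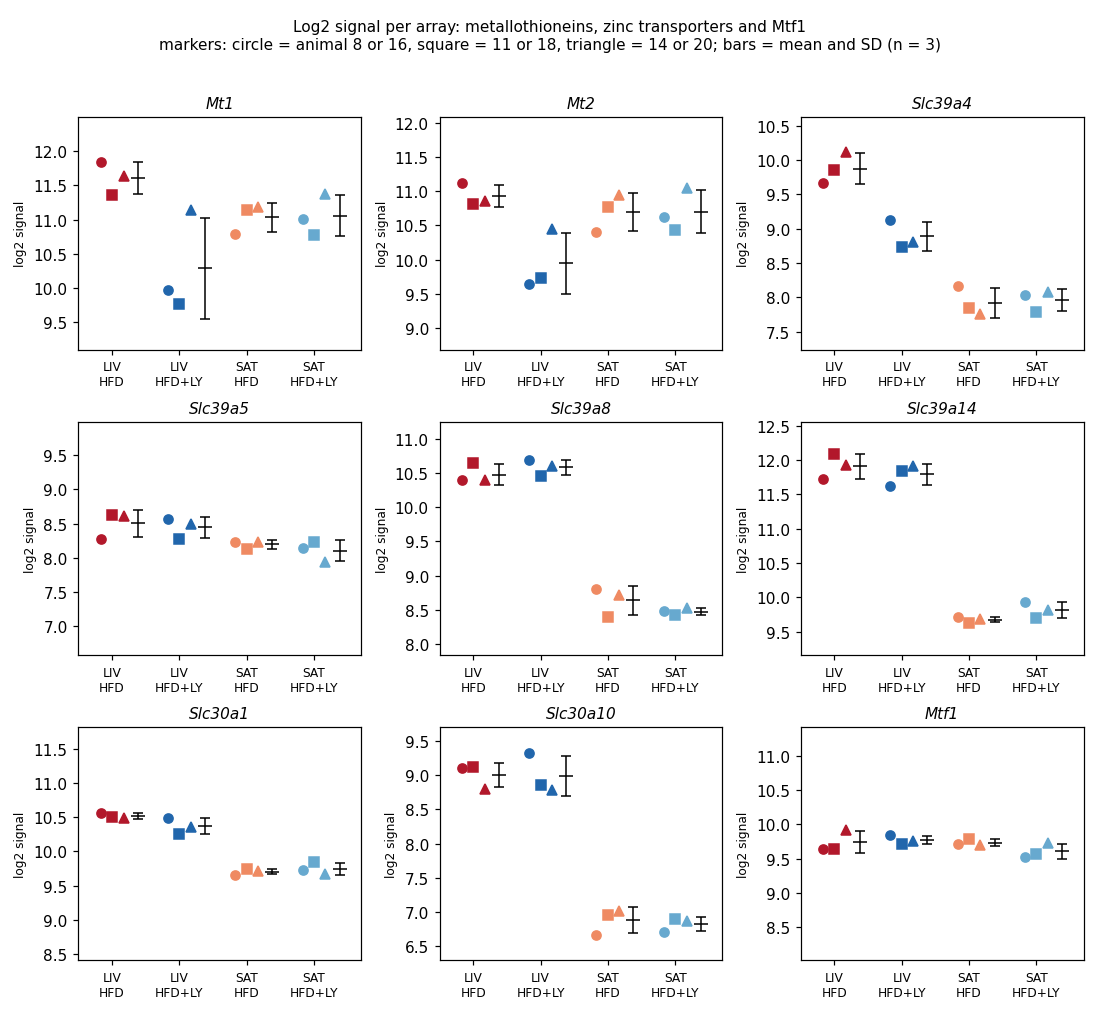
Log2 signal of each of the 9 genes on each array (vertical axis, with the same span in every panel) in the 4 groups of tissue and treatment (horizontal axis); each point is 1 array, its shape names the animal, and the bars are the mean and SD of 3 arrays. Mt1, Mt2 and Slc39a4 are the genes whose HFD + LY livers lie wholly below the HFD livers, and no gene separates the SAT groups.

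Slc39a4, which encodes ZIP4, the importer needed for zinc uptake in the gut and mutated in human acrodermatitis enteropathica, was the importer with a lower liver signal in HFD + LY mice. It read 9.67, 9.85 and 10.11 in HFD animals 8, 11 and 14, against 9.12, 8.73 and 8.81 in HFD + LY animals 16, 18 and 20. The gap between the groups was 0.543, wider than for the metallothioneins, and here animal 16, not animal 20, was the nearest to the HFD mice. The difference was -0.99 (SE 0.146), a ratio of 0.503, and the SD was 0.224 in HFD and 0.208 in HFD + LY. It ranked 9th lowest among all probe sets. Since ZIP4 is known from the gut, and Slc39a5 from gut and pancreas, markers of those tissues were read in the same livers. The mean log2 signal of 9 of the 10 listed pancreas acinar markers ran from 8.176 to 8.238 in HFD and from 8.119 to 8.242 in HFD + LY. Among them Ctrb1 was below the 25th percentile of the array on all 6 liver arrays and Cpb1 on 5, while the other 7 were on none. The 5 intestinal markers averaged 9.196 to 9.269 in HFD and 9.092 to 9.253 in HFD + LY. Fabp2, at 12.35 to 12.63 over all livers, and Lgals4, at 9.735 to 10.14, raised that mean. Vil1 read 8.319 to 8.827, Muc2 7.511 to 8.016 and Cdx2 7.103 to 7.306. The acinar and the intestinal means both overlapped between the groups. Of the 5 intestinal markers 1 and of the 9 acinar markers 0 were lower in HFD + LY livers at an unadjusted p under 0.05 in limma. The part of these markers' cell types in the difference of Slc39a4 was not tested.

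The other 6 members differed by less than 0.3 in the liver, and their groups overlapped. Slc39a14 (ZIP14), which carries zinc, iron and manganese into hepatocytes, read 11.72 to 12.09 in HFD and 11.62 to 11.92 in HFD + LY, with a difference of -0.12 (SE 0.125). Slc39a8 (ZIP8), known for manganese and zinc uptake, read 10.39 to 10.65 and 10.46 to 10.69, with a difference of 0.10 (SE 0.11). Slc39a5 (ZIP5) read 8.28 to 8.631 and 8.279 to 8.565, with a difference of -0.06 (SE 0.127). None of these importers came near the size seen for Slc39a4.

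Of the exporters, Slc30a1 (ZnT1), the zinc exporter of the plasma membrane, read 10.57, 10.50 and 10.48 in the livers of animals 8, 11 and 14 and 10.49, 10.25 and 10.36 in those of animals 16, 18 and 20. Animals 18 and 20 were below every HFD liver, animal 16 was level with the lowest, and the difference was -0.15 (SE 0.0959). Slc30a10, known in humans and mice as a manganese exporter, read 8.805 to 9.117 in HFD and 8.783 to 9.329 in HFD + LY, with a difference of -0.02 (SE 0.159). Mtf1 itself read 9.647 to 9.922 and 9.717 to 9.841, with a difference of 0.03 (SE 0.106). The HFD + LY livers thus lay inside the HFD range for the zinc sensor, and the difference of Slc30a1 was small beside that of Mt1.

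In all, 7 of the 9 members had a negative liver difference and 2 a positive one, with a median of -0.12 against -0.0066 over all probe sets. The groups were separate with HFD + LY lower for 3 members, and with HFD + LY higher for 0. Over all probe sets the groups were separate in 6.89% with HFD + LY lower and in 5.61% with it higher. Since the members were selected on this contrast, nothing is read from that count. An exact permutation test of 3 against 3 arrays cannot give a two-sided p below 0.1.

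In SAT none of the 9 genes separated the groups. Mt1 read 10.79, 11.14 and 11.18 in HFD animals 8, 11 and 14 and 11.01, 10.78 and 11.37 in HFD + LY animals 16, 18 and 20. The difference of 0.02 (SE 0.173) was well inside the spread of either group. Mt2 read 10.40, 10.76 and 10.94 against 10.62, 10.43 and 11.04, with a difference of -0.0048 (SE 0.191). Slc39a4 read 8.17, 7.84 and 7.75 against 8.04, 7.78 and 8.07, with a difference of 0.04 (SE 0.14). The 3 genes that were lower in the liver therefore had SAT differences under 0.05 in size. Whether the liver and SAT differences of the members differ from each other was not tested, because both contrasts were used to choose them.

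The remaining SAT differences ran from -0.16 for Slc39a8 to 0.14 for Slc39a14. Slc39a8 read 8.80, 8.398 and 8.71 in HFD and 8.48, 8.42 and 8.52 in HFD + LY. Slc39a14 read 9.71, 9.63 and 9.68 in HFD and 9.94, 9.70 and 9.82 in HFD + LY, so that animals 16 and 20 were above every HFD array and animal 18 was level with the highest. Slc39a5 (-0.09), Slc30a1 (0.04), Slc30a10 (-0.06) and Mtf1 (-0.13) overlapped as well. The median over the members, -0.0048, was also that of all probe sets, and the groups were separate for 0 members, against 5.48% of all probe sets with HFD + LY lower and 4.01% with it higher. Without animals 11 and 20, whose SAT carried the muscle signal, the SAT differences were -0.09 for Mt1, -0.15 for Mt2, -0.05 for Slc39a4 and -0.31 for Slc39a8.

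**Figure D2:**
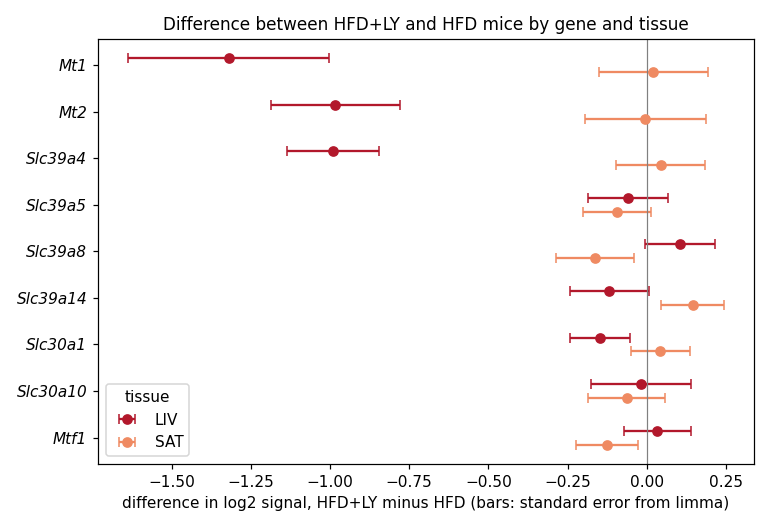
Difference in log2 signal, HFD + LY minus HFD (horizontal axis), for the 9 genes (vertical axis) in LIV and in SAT; points are limma estimates and bars their standard errors, 3 arrays per group. The liver values of Mt1 (-1.32), Mt2 (-0.98) and Slc39a4 (-0.99) stand apart from the other 15 points, which lie between -0.16 and 0.14.

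The comparison of the tissues was not used to choose the members, and it was tested in limma on all 12 arrays with the p-values adjusted over all probe sets by Benjamini-Hochberg. Of the 9 members, 6 were higher in LIV than in SAT at an adjusted p under 0.05, 0 were higher in SAT, and 3 passed in neither direction. Of all probe sets, 30.7% were higher in LIV and 29.2% higher in SAT. The largest differences among the members were those of the manganese and zinc carriers. Slc30a10 read 8.783 to 9.329 in LIV and 6.674 to 7.024 in SAT, a difference of 2.14 (SE 0.107, adjusted p = 1.77e-09), and was below the 25th percentile of the array on 5 of the SAT arrays. Slc39a14 was higher in LIV by 2.11 (SE 0.0804, adjusted p = 1.09e-10) and Slc39a8 by 1.97 (SE 0.0834, adjusted p = 3.23e-10). In linear terms these were ratios of 4.42, 4.31 and 3.92, and no liver array of these genes reached down to the SAT range.

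Slc39a4 was higher in LIV by 1.44 (SE 0.108, adjusted p = 1.07e-07 in limma), and this value averages 1.96 in HFD mice and 0.925 in HFD + LY mice. Slc30a1 was higher in LIV by 0.715 (SE 0.0623, adjusted p = 5.07e-07) and Slc39a5 by 0.325 (SE 0.0852, adjusted p = 0.00552). The smallest of these, that of Slc39a5, had an adjusted p of 0.0873 in limma when animals 11 and 20, with their muscle signal, were left out. Mtf1 differed by 0.08 (SE 0.0694, adjusted p = 0.309), with an LIV range of 9.647 to 9.922 and an SAT range of 9.52 to 9.789.

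For the metallothioneins the order of the tissues was not the same in the treatment groups. Averaged over both, Mt1 differed by -0.10 (SE 0.207, adjusted p = 0.709 in limma) and Mt2 by -0.26 (SE 0.155, adjusted p = 0.164). Both averages include the livers with which the genes were chosen. The values within 1 treatment group rest on them too and are given with no test. In HFD mice alone the LIV minus SAT difference was 0.575 for Mt1 and 0.228 for Mt2. In HFD + LY mice alone it was -0.765 and -0.75. The group means of Mt1, from high to low, were 11.61 in LIV of HFD, 11.05 in SAT of HFD + LY, 11.03 in SAT of HFD and 10.29 in LIV of HFD + LY. The SAT groups in the middle did not differ beyond their spread.

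**Figure D3:**
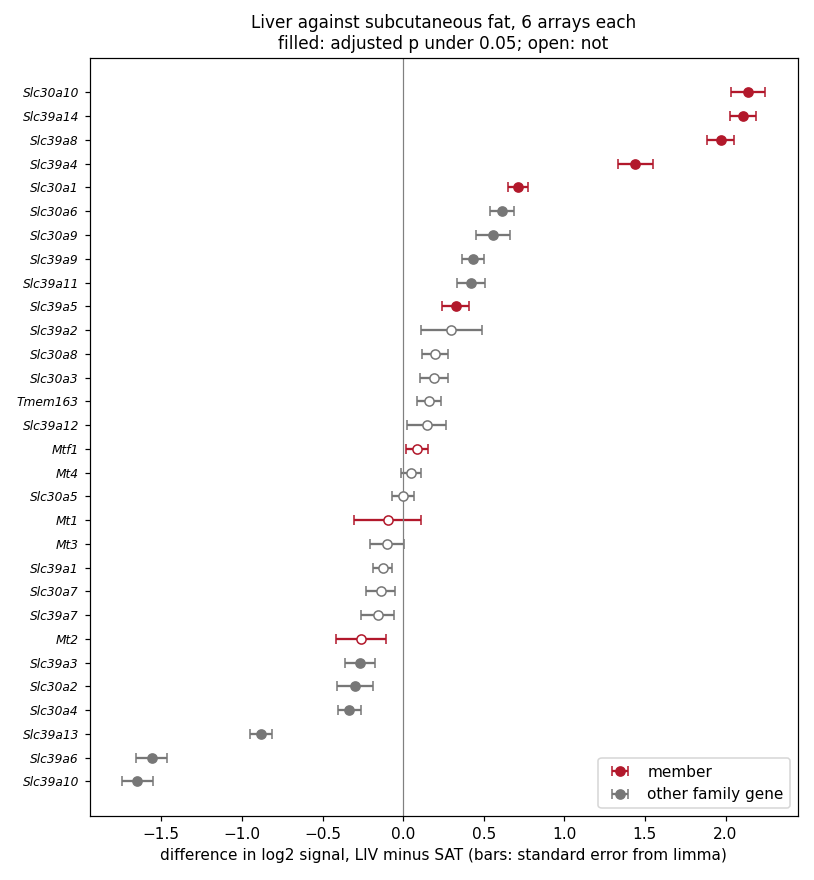
LIV minus SAT difference in log2 signal (horizontal axis), averaged over both treatments with 6 arrays per tissue, for the 9 members and the other metallothionein, ZIP and ZnT genes (vertical axis); points are limma estimates, bars their standard errors, filled points have an adjusted p under 0.05. Slc30a10, Slc39a14, Slc39a8 and Slc39a4 lie farthest to the liver side, Slc39a10 and Slc39a6 farthest to the SAT side.

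Across both transporter families, the metallothioneins and Mtf1, 30 genes were measured, of which 10 were higher in LIV, 6 higher in SAT and 14 passed in neither direction. The 9 members supplied 6 of the 10 genes higher in LIV and 0 of the 6 higher in SAT. Over all probe sets 30.7% were higher in LIV and 29.2% in SAT, so nothing is read from these counts about the families. The importers were split, with 6 of 14 higher in LIV and 4 higher in SAT. Slc39a10 and Slc39a6, a closely related pair of importers of the plasma membrane, were the most SAT-sided, at -1.65 (SE 0.0955, adjusted p = 7.86e-09 in limma) and -1.56 (SE 0.0947, adjusted p = 1.3e-08). Slc39a13, an importer of intracellular vesicles whose loss disturbs connective tissue in humans and mice, was lower in LIV than in SAT at -0.88 (SE 0.0683, adjusted p = 1.61e-07). Of 11 exporters, 4 were higher in LIV, Slc30a10 and Slc30a1 with Slc30a6 (0.613) and Slc30a9 (0.558), and 2 were higher in SAT, Slc30a4 (-0.334) and Slc30a2 (-0.299). None of the 4 metallothioneins passed; Mt3 and Mt4, known from brain and from stratified epithelium, differed by -0.10 and 0.05. The signals of different probe sets were not ranked against each other, since probe sets differ in brightness.

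The other genes of zinc handling were compared between HFD + LY and HFD by the same fit over all probe sets. No gene of these lists passed an adjusted p of 0.05 in either tissue. Genes of the lists are called lower or higher at an unadjusted p under 0.05. Over all probe sets 1 passed the adjusted threshold in LIV, the cytochrome P450 gene Cyp4a12b (adjusted p = 0.0016 in limma), which is named after its value was seen, and 0 in SAT. An unadjusted p under 0.05 was reached in LIV by 3.94% with HFD + LY lower and 2.96% with it higher, and in SAT by 3.19% and 1.86%. Centring each array on its median moved the share of higher genes among the liver calls from 42.9% to 62.3%, and quantile normalization within SAT moved it there from 36.8% to 49.1%. Both scalings, applied within LIV, left Mt1 at -1.29 and -1.36 in LIV, Mt2 at -0.95 and -1.02, and Slc39a4 at -0.96 and -1.01.

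Of the 10 other importers, 1 was higher and 0 lower in HFD + LY livers at an unadjusted p under 0.05. That gene was Slc39a10, which MTF1 is known to repress when zinc is high. It read 7.864, 8.042 and 7.777 in animals 8, 11 and 14 and 8.224, 8.633 and 8.146 in animals 16, 18 and 20. The groups did not overlap. Animal 18 had the highest Slc39a10 and the lowest Mt1, while the lowest Mt2 was that of animal 16. The part of MTF1 in these values was not tested. The difference was 0.44 (SE 0.142, adjusted p = 0.687 in limma). The call was lost without animal 14, where the difference was 0.38, and under the methods' t-test, and the difference was 0.29 without animal 18. The median of the 10 importers was -0.06, against -0.0066 over all probe sets.

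Among the 9 other exporters of the liver, Slc30a3, which loads synaptic vesicles with zinc, was lower at -0.29 (SE 0.0965, adjusted p = 0.687 in limma) and Slc30a6, an exporter into the Golgi, higher at 0.29 (SE 0.112, adjusted p = 0.707). Their median was 0.03. Of the 4 other genes of the MTF1 list, Slc39a10 was higher and Csrp1, a LIM-domain protein and known MTF1 target, lower. Csrp1 read 9.774, 9.491 and 9.517 in HFD and 9.226, 9.454 and 9.174 in HFD + LY, a difference of -0.31 (SE 0.118, adjusted p = 0.707 in limma). The unadjusted calls of Slc30a3, Slc30a6 and Csrp1 were each lost when certain single animals were left out. In SAT, 1 of the 10 other importers passed, the widely expressed plasma membrane importer Slc39a1, which was lower at -0.21 (SE 0.0906, adjusted p = 0.975 in limma) and lost the call without any one of the 6 animals. Of the SAT exporters and MTF1 targets 0 passed.

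Metals other than zinc also bind metallothioneins or share these carriers. Of 13 copper genes, 1 was lower in HFD + LY livers, Heph, the ferroxidase hephaestin, at -0.37 (SE 0.118, adjusted p = 0.687 in limma). Its liver signal was low, at 6.59 to 6.897 in HFD and 6.228 to 6.506 in HFD + LY. A filter on dim probe sets left it out. The copper importer Slc31a1 (CTR1) did not separate the liver groups, at 11.889 to 11.966 in HFD and 11.9 to 11.967 in HFD + LY. In SAT it was the 1 copper gene that passed. It read 10.37, 10 and 10.1 in HFD and 9.493, 9.611 and 9.794 in HFD + LY, and the difference was -0.52 (SE 0.131, adjusted p = 0.908 in limma). Without animals 11 and 20 it was -0.68.

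Of 18 iron genes in the liver, 1 was higher, Hamp, which encodes hepcidin, the hormone that lowers iron export. It read 11.153, 11.824 and 11.740 in HFD animals 8, 11 and 14 and 12.247, 12.202 and 11.927 in HFD + LY animals 16, 18 and 20. All HFD + LY livers were above all HFD livers, with animal 20 again the nearest. The difference was 0.55 (SE 0.179, adjusted p = 0.687 in limma), opposite in sign to that of the metallothioneins. It was 0.34 without animal 8, and the call was lost under the methods' t-test. In SAT 2 iron genes were lower and 2 higher: Tfr2, a sensor of loaded transferrin, at -0.93 and Hfe, its partner in iron sensing, at -0.75, and the iron exporter Slc40a1 at 0.51 and Smad7, an inhibitor of BMP signaling, at 0.33. Their adjusted p-values in limma were 0.949, 0.949, 0.949 and 0.908.

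The known inducers of metallothioneins were read through lists of genes of their pathways, none of which holds a member. The lists mix target genes with receptors, signaling genes and regulators, such as Nr3c1, Il6ra, Stat3 and Keap1. Their counts, medians and means therefore do not measure target genes alone. Of 16 genes of the glucocorticoid list in the liver, 1 was lower, Tsc22d3 (GILZ), at -0.56 (SE 0.244, adjusted p = 0.719 in limma), and 1 higher, the transcription factor Zbtb16, at 0.66 (SE 0.172, adjusted p = 0.685). Tsc22d3 read 10.671, 10.121 and 11.017 in HFD and 9.944, 9.740 and 10.456 in HFD + LY, so the groups overlapped, and animal 20 was again the highest of the treated mice. Zbtb16 read 10.328, 10.669 and 9.916 against 11.045, 10.923 and 10.913, with no overlap. The median of the list was -0.128. Of 18 genes of the interleukin 6 and STAT3 acute phase list, 1 was higher, Apcs (serum amyloid P), at 0.34 (SE 0.0997, adjusted p = 0.687 in limma), with 0 lower and a median of -0.06. Of 13 NRF2 genes, Hmox1 (heme oxygenase) was lower at -0.31 (adjusted p = 0.705 in limma) and Osgin1 higher at 0.66 (adjusted p = 0.719), with a median of 0.08.

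Relative to the HFD mean, the glucocorticoid list averaged -0.143, -0.164 and 0.0811 in the livers of animals 16, 18 and 20, and the acute phase list -0.324, -0.183 and 0.184. Within the HFD + LY group animal 20 was thus the highest on both lists, as it was for Mt1 and Mt2. Mt1 stood at -1.643, -1.844 and -0.472 on the same scale, and Slc39a4 at -0.753, -1.144 and -1.072. The NRF2 list, at 0.162, 0.0832 and -0.0116, ran the other way, as did the iron list, at 0.143, 0.0469 and 0.0236. The copper list, at -0.0438, -0.0302 and -0.0232, was also highest in animal 20. In the acute phase list, Saa2 and Lcn2 had the largest SDs in HFD + LY livers, 1.31 and 1.25. In HFD animals 8, 11 and 14 the acute phase list averaged 0.001, 0.123 and -0.124, and Mt1 stood at 0.226, -0.248 and 0.023. Animal 11 was thus the highest of the HFD livers on that list and the lowest for Mt1 and Mt2. The glucocorticoid list averaged -0.005, -0.009 and 0.014 in the HFD livers. These are 3 animals per group, and the part of either pathway in the values of Mt1 and Mt2 was not tested.

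**Figure D4:**
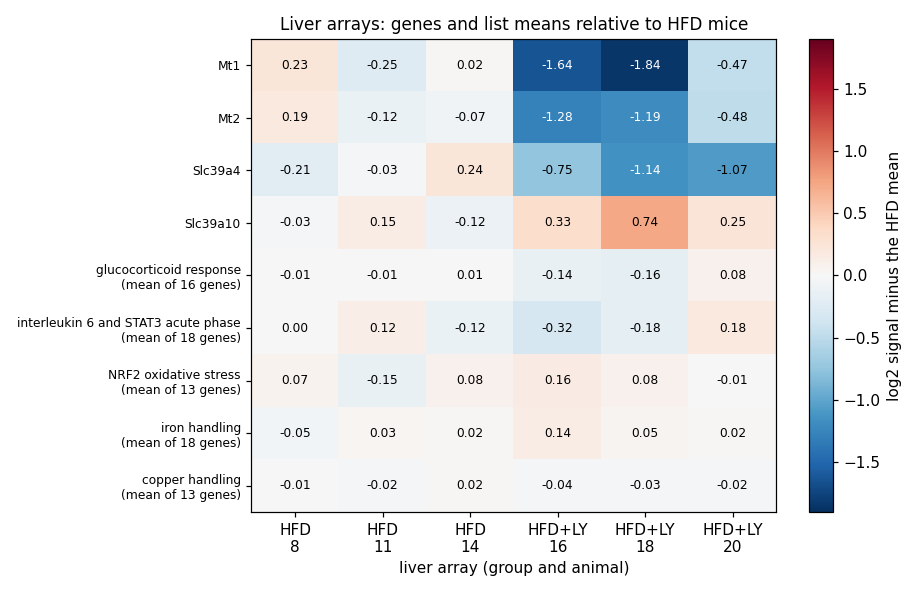
Log2 signal minus the mean of the 3 HFD livers (colour and printed value) for 4 genes and for the means of 5 gene lists (vertical axis) on each of the 6 liver arrays (horizontal axis, group and animal). Mt1 and Mt2 are lowest in HFD + LY animals 16 and 18, Slc39a4 is low in all 3 HFD + LY livers, and the glucocorticoid and acute phase lists are below 0 in animals 16 and 18 and above 0 in animal 20.

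In SAT, where Mt1 and Mt2 did not separate the groups, 3 of the 16 glucocorticoid genes were higher, Fkbp5 (0.52), Zbtb16 (0.555) and Hsd11b1 (0.367), the last encoding the enzyme that regenerates active glucocorticoid in the cell, and 0 were lower, each with an adjusted p of 0.95 in limma. Of the acute phase list, 3 were lower and 1 higher. The acute phase protein Saa3 read 10.455, 9.886 and 10.987 in HFD and 8.623, 8.426 and 9.188 in HFD + LY, a difference of -1.70 (SE 0.291, adjusted p = 0.479 in limma). Orm1 and Orm2, both orosomucoids, were lower at -0.84 and -0.57, and the receptor gene Il6ra higher at 0.66. Of the NRF2 list, Gclm, a subunit of the enzyme that makes the glutathione precursor, was lower at -0.47 and Gstm1, a glutathione transferase, higher at 0.42.

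Mt1 and Mt2 moved together over animals in both tissues, with a Pearson r of 0.986 in LIV and 0.98 in SAT (Spearman rho 0.943 in both), over 6 arrays of both treatment groups in each tissue. Both genes are close in sequence, and whether their probe sets share targets was not tested. Mt1 and Slc39a4 correlated with r = 0.738 (rho 0.771) in LIV and r = -0.06 (rho -0.03) in SAT. The LIV values of these pairs hold the lower signals of the HFD + LY livers, which were known when the genes were chosen. Correlation within a treatment group was not tested. The genes whose pattern over the 6 livers was most like the mean of Mt1 and Mt2 were Ccdc77 (r = 0.992), Serpina1f (0.991), Slc7a6os (0.991), Ces2e, a carboxylesterase (0.99), and Rgs16, a regulator of G-protein signaling (0.984). Of these, Rgs16 had the widest range of signal, 10.39 to 11.26. In SAT they were Olfr512 (0.989), Rnf126 (0.988), Pnma5 (0.985), Sorcs3 (0.985) and Pbld2 (0.983), which shares no gene with the liver list. The SAT ranges were low or narrow. They were 5.168 to 5.481 for Olfr512, 6.715 to 7.019 for Sorcs3 and 6.787 to 7.241 for Pnma5. Pbld2 read 7.727 to 8.165 and Rnf126 10.05 to 10.25. Of 19496 genes, 76 (0.39%) had an r over 0.95 in LIV and 37 (0.19%) in SAT. The most opposite genes reached an r of -0.996 in LIV and -0.983 in SAT. How many such values 6 arrays give by chance was not tested, so nothing is read from the names or from their lack of overlap. These correlations are a description only.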

How the data were processed

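RNA of LIV and SAT of 6 mice was measured on 12 whole-transcript arrays. The authors ran RMA (background correction, quantile normalization, 1 summary per probe set) and deposited the log2 signals. The sample notes name RMA and limma; their versions and the build of the array annotation were not given in the sources used here. Of 28846 rows, 6640 controls were left out. All other 22206 were tested with no filter: 19572 had exactly 1 gene symbol and 2634 did not.

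HFD + LY was compared with HFD in each tissue, and LIV with SAT over 4 group means, with limma 3.58.1 in R 4.3.3. P-values were adjusted over the 22206 probe sets by Benjamini-Hochberg, with 0.05 as the threshold. The fits were tested on simulated data. For arrays, their number limits the precision. Array medians ran from 8.16 to 8.28, and arrays of 1 group correlated by 0.9673 to 0.9952.

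The members and the 9 pathway and 10 marker lists were chosen with earlier results of these data known. Named were all members, of each list and tissue up to 4 genes with the smallest unadjusted p under 0.05, zinc transporter and metallothionein genes in the tissue comparison, and the 5 genes per tissue most correlated with the mean of Mt1 and Mt2. A symbol was read from its brightest probe set. Of the listed genes, those with no probe set of that symbol were not analysed here. The arrays are paired by animal: LIV and SAT arrays carry the same animal numbers and come from the same mice. Within an animal, the deviations of both arrays from their groups had correlations of -0.067 to 0.21. Alternatives were 1 fit of all arrays, an intensity trend, other scalings, array weights, a filter on dim probe sets, the methods' t-test, the animal as a block and leaving out each animal or animals 11 and 20, whose SAT signal of muscle was known from earlier work. MRE cores were searched on both strands of RefSeq promoter windows. Plots were made in Python 3.11.15 with matplotlib 3.10.9.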

Additional observations from a re-analysis of the deposited data

How the results depend on the processing

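The liver differences of Mt1, Mt2 and Slc39a4 kept their sign under all 6 other fits and scalings run and without each animal in turn, where they ran from -1.74 to -1.06, from -1.24 to -0.834 and from -1.11 to -0.872. Counts of probe sets at an unadjusted p under 0.05 ran from 1052 to 1952 in LIV without single animals (1533 with all) and from 551 to 2722 in SAT (1121 with all). The SAT counts were 604, 551 and 672 when animal 8, 16 or 18 was left out and 1891 and 2722 when animal 11 or 20 was. The SAT count was 4761 with array weights and 4045 without animals 11 and 20, and the adjusted count there went from 0 to 355 and 573, and to 17 in 1 fit of all 12 arrays. In LIV the adjusted count was 7 with an intensity trend, 2 in 1 fit of all arrays and 0 by the methods' t-test, against 1. The causes were not tested. With the animal as a paired replicate block, the tissue comparison called 13298 probe sets against 13311, and the block changed no member's call. Among members, the LIV minus SAT difference of Mt1 was 0.575 in HFD animals only, against -0.0952 in all, and that of Mt2 was -0.75 in HFD + LY animals only, against -0.261. Both are descriptions, since the genes were chosen on those livers. Without animal 20 that of Mt2 was -0.301 (adjusted p = 0.0402 in limma), which rests in part on the same livers. That of Slc39a5 missed the threshold in HFD animals only (0.308), in HFD + LY animals only (0.342) and without animals 11 and 20 (0.221). Leaving out 1 animal lost the unadjusted liver calls of Slc39a10 (animal 14, difference 0.381), Heph (animal 14, -0.279), Slc30a3 (11, 14 or 16, -0.261 to -0.248), Slc30a6 (11, 14, 16 or 18, 0.231 to 0.259), Csrp1 (8, 16 or 20, -0.28 to -0.219), Tsc22d3 (8, 14, 16 or 18, -0.522 to -0.35), Hmox1 (8, 11 or 18, -0.287 to -0.215) and Osgin1 (8, 11, 14, 16 or 18, 0.451 to 0.706). In SAT it lost those of Slc39a1 (any, -0.247 to -0.179), Tfr2 (18, -0.677), Slc40a1 (16, 0.42), Hfe (16 or 18, -0.68 to -0.624), Fkbp5 (8, 18 or 20, 0.341 to 0.463), Zbtb16 (8, 14 or 16, 0.436 to 0.519), Hsd11b1 (11, 16 or 18, 0.309 to 0.333) and Orm2 (14, 16 or 18, -0.516 to -0.42). Single animals also moved Hamp to 0.343 (without animal 8), Slc39a10 to 0.29 (without 18) and Osgin1 to 1.05 (without 20), and leaving out animals 11 and 20 moved Hfe to -1.18 and Orm2 to -0.872 in SAT. The methods' t-test lost the calls of Slc39a10, Slc30a6, Csrp1, Hamp, Tsc22d3 and Osgin1 in LIV and of Tfr2, Slc40a1, Hfe, Fkbp5, Zbtb16 and Orm2 in SAT. The fit of all 12 arrays lost Heph, Hmox1 and, in SAT, Orm2. Median centring lost Csrp1, Tsc22d3 and Slc39a1, the filter on dim probe sets Tsc22d3 and Osgin1, array weights Tsc22d3, and quantile normalization, the intensity trend and leaving out animals 11 and 20 Slc39a1. The filter on dim probe sets also left Heph out of the liver fit. The other probe sets of a symbol gave no value, since each member has 1. With 6 arrays per tissue, their number limits the precision.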
